A study of Mus musculus with 35 samples.

Results

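The 39 genes examined here are the protein-coding Hox genes of the mouse, those whose symbol is Hoxa, Hoxb, Hoxc or Hoxd followed by a number from 1 to 13. They were chosen by symbol from a table that counts 55356 genes. Of the 39 genes, 38 are counted in 36 units: 31 units are single annotated genes, and 5 are long-read loci of the same series. Hoxc4, Hoxc5 and Hoxc6 share 1 of these loci and are counted together. The locus of Hoxa7 covers 30.9% of the exon bases of that gene, so the level of Hoxa7 rests on this part alone. Hoxa3 is paired with the locus of Hoxa4, which covers 0 of the exon bases of Hoxa3, so the level of Hoxa3 was not analysed here.

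The series set out to catalogue mouse pseudogene transcripts by joining long and short reads. It holds 29 short-read libraries and 6 long-read runs. The short-read libraries are ribosomal-RNA-depleted, strand-specific total RNA from adult C57BL/6J mice: 3 female and 3 male libraries each of brain, cerebellum and colon, 3 female and 2 male of heart, 3 of ovary and 3 of testis. This makes 10 groups of tissue and sex, with 15 female and 14 male libraries. The labels do not state which animal each library comes from, so the p-values below measure only the spread between these samples.

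Hox genes encode homeodomain transcription factors that give cells along the body axis their position. In mammals they lie in 4 clusters, and the order of genes along a cluster mirrors the order of their expression domains from hindbrain to tail. Many adult tissues keep the Hox code of the embryonic region they arose from, mostly in connective tissue, muscle and other mesoderm derivatives, while the forebrain and midbrain form in front of the Hox domains.

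The clusters span 105.3 kb (HoxA, chromosome 6), 173.9 kb (HoxB, chromosome 11), 115.8 kb (HoxC, chromosome 15) and 96.8 kb (HoxD, chromosome 2). By paralog number the units fall into 7 anterior (1 to 3), 13 central (4 to 8) and 16 posterior (9 to 13) ones. Of the 36 units, 11 share exon bases with another gene, 5 of them on the same strand, so part of their reads could belong to the neighbor. Among them, 53.1% of the exon bases of Hoxd3 and 39.1% of those of Hoxd4 lie in Gm28230. Hoxb3 shares 52.9% with the opposite-strand Hoxb3os, and Hoxa11 shares 35.0% with the opposite-strand Hoxa11os.

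Levels are given as FPKM on the library total, and a gene is called detected in a tissue at a mean of at least 1 FPKM. Library totals ran from 11742417 to 36194255 reads (median 24403774). Tests are edgeR quasi-likelihood tests on 29911 genes with Benjamini-Hochberg adjusted p-values, called under 0.05, and each log2 difference carries its standard error. Where the reference group has 0 counts, a lower bound is given that assigns it 3 counts per library; with 1 to 3 counts, the ratio carries its exact 95% counting interval. Fitted differences average the groups of tissue and sex on the log scale. Of 90 fitted differences of called units, 38 include a group with 0 counts inside the comparison; such a value depends on the prior count of the fit, and where it is printed for a Hox gene the log2 ratio of the mean FPKM follows it as "means". These intervals and floors cover counting error only.

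The labels were checked with genes that define tissue and sex. Of 23 such genes, 22 were higher in every library of their own group than in any other library. The exception was the oocyte gene Gdf9, which is counted under a long-read locus. The lowest ovary value of this locus was 23.2 FPKM and its highest value elsewhere was 241 FPKM. It averaged 176.5 FPKM in heart and 32.5 FPKM in ovary, and whether its reads come from Gdf9 was not tested. Xist ran at 10.9 FPKM or more in females and at 0.0948 FPKM or less in males, and Ddx3y and Eif2s3y had the opposite split.

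The summed Hox level was read per library before any test. In brain it was 2.56, 0.746 and 0.275 FPKM in the female libraries and 0.168, 0.122 and 0.0518 FPKM in the male libraries. In cerebellum it was 6.91, 37.9 and 5.15 FPKM in females and 0.442, 0.968 and 17.7 FPKM in males. Heart had 1.599, 2.77 and 19.7 FPKM in females and 2.11 and 1.84 FPKM in males. Female brain replicate 1 and female heart replicate 3 stand more than 2.5-fold above the next library of their tissue, and so do female cerebellum replicate 2 and male cerebellum replicate 3, as a pair, above the other cerebellum libraries. The cut was chosen after these values were seen and is not the only one they allow: female brain replicates 1 and 2, taken as a pair, lie 2.72-fold above the next brain library, and female cerebellum replicate 3 lies 5.32-fold above the next cerebellum library. Counts and medians of the tests are given with and without the 4 libraries. As these were picked by their summed Hox level, leaving them out lowers the Hox level of brain, cerebellum and heart by construction. Differences against these tissues tend to grow with that choice, so the fits without the 4 libraries are no independent support for them.

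Marker genes of neighboring tissue differ between the same libraries. The 6 brainstem markers, Tph2 and Dbh among them, summed to 10.5 FPKM in female brain replicate 1, with Tph2 the most abundant at 4.83 FPKM, and to 0.815 to 1.23 FPKM in the other brain libraries, where 0 to 2 of the 6 had no count. In cerebellum the sums were 8.49, 14.1 and 11.0 FPKM in females and 2.80, 1.33 and 14.2 FPKM in males, with Tph2 or Dbh on top and 0 markers without a count. The 2 cerebellum libraries with the lowest Hox sums also have the lowest brainstem sums. In the test, 4 of the 6 markers were called higher in cerebellum than in brain, as were 10.8% of all genes. The 3 choroid plexus markers, led by Ttr, were all higher in cerebellum and ran from 1024 to 3886 FPKM there against 19.8 to 1561 FPKM in brain.

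In heart the 3 adipose markers summed to 813 FPKM in female replicate 3, led by Adipoq at 695 FPKM, and to 0.0877, 2.27, 0.601 and 0.0830 FPKM in the other libraries. The same library had 54.5 FPKM of the 4 leukocyte markers (12.2 to 14.9 FPKM elsewhere), 872 FPKM of the 3 fibroblast markers (350 to 504 FPKM elsewhere), 101 FPKM of the 3 endothelium markers (60.1 to 125 FPKM elsewhere) and 663 FPKM of the 4 smooth muscle markers (1163 to 1465 FPKM elsewhere). Myh6 stood at 1789 FPKM there and at 3441 to 4951 FPKM in the other hearts. The adipose markers also differed between tissues. They summed on average to 56.8 FPKM in colon, 56.9 FPKM in ovary and 45.0 FPKM in testis, against 0.0643 FPKM in brain and 0.174 FPKM in cerebellum. Whether neighboring tissue supplied the Hox reads was not tested. Bulk RNA cannot tell fewer cells of a kind from less RNA per cell.

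**Figure D1:**
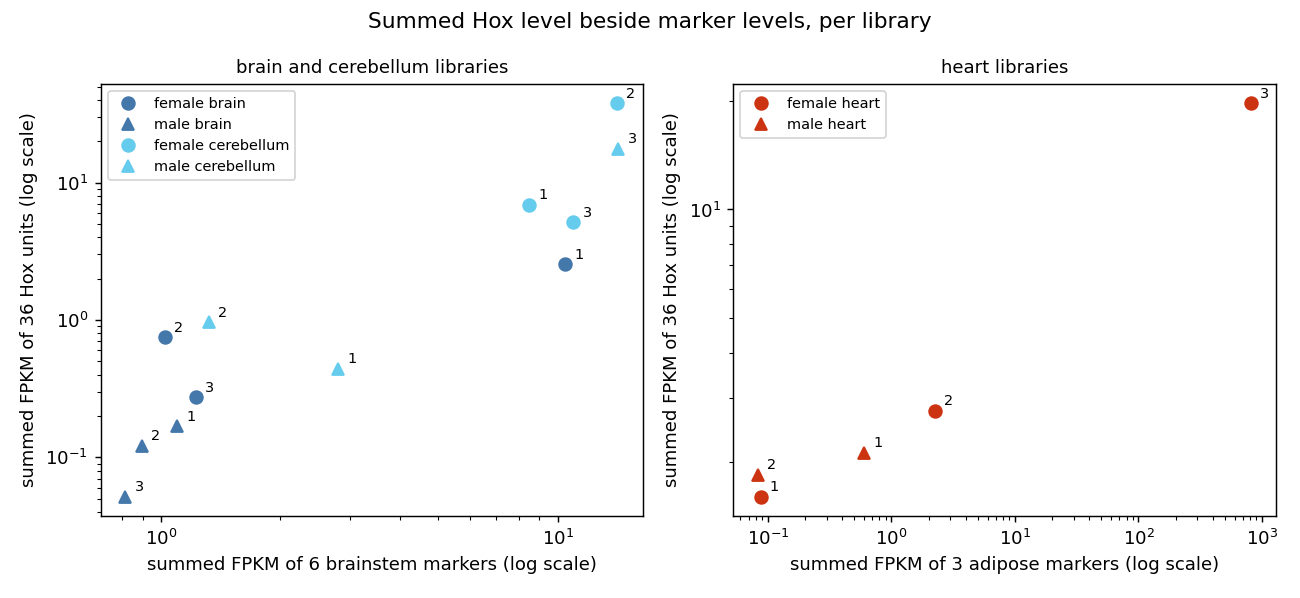
Summed FPKM of the 36 Hox units per library against summed brainstem markers in brain and cerebellum (left) and against summed adipose markers in heart (right), both axes logarithmic, numbers giving replicates. Libraries high in Hox genes lie at the right of each panel.

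Colon, ovary and testis carry far more Hox RNA than the head tissues and the heart. The summed level was 82.6, 87.3 and 105 FPKM in female colon, 98.1, 93.2 and 79.2 FPKM in male colon, 127, 127 and 117 FPKM in ovary and 66.8, 62.5 and 65.1 FPKM in testis. Tissue means with SD were 0.654 ± 0.966 FPKM in brain, 11.5 ± 14.3 in cerebellum, 5.60 ± 7.89 in heart, 91.0 ± 9.89 in colon, 124 ± 5.60 in ovary and 64.8 ± 2.15 in testis. Without the libraries that stand apart the means were 0.273 ± 0.277 FPKM in brain, 3.37 ± 3.17 in cerebellum and 2.08 ± 0.505 in heart. Colon, ovary and testis did not overlap with each other or with the 17 libraries of the other 3 tissues.

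Of the 36 units, 0 were detected in brain, 5 in cerebellum, 1 in heart, 19 in colon, 16 in ovary and 6 in testis; without the libraries that stand apart, cerebellum and heart fall to 0. The share of all genes detected per tissue is not given here, so these counts describe the units alone. Without female cerebellum replicate 2 alone the cerebellum count is 2, without male replicate 3 alone it is 3, and without female heart replicate 3 the heart count is 0. The number of units with no count at all was 19 in brain, 11 in cerebellum, 14 in heart, 5 in colon, 5 in ovary and 3 in testis. The units of paralog groups 12 and 13 reached 1 FPKM on average in 0 tissues. Of the 36 units 30 passed the expression filter and were tested. The other 6 were Hoxb1, Hoxb13, Hoxc12, Hoxc13, Hoxd12 and Hoxd13, with 3, 3, 0, 6, 6 and 24 counts in the series. Some tested units had 0 counts in brain and cerebellum (Hoxa11, Hoxa13, Hoxd10 and Hoxd11 among them) or in heart (Hoxa9 and Hoxb9 among them). They passed the filter through other tissues only and could not come out lower against those without counts. They are part of the counts and medians below.

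**Figure D2:**
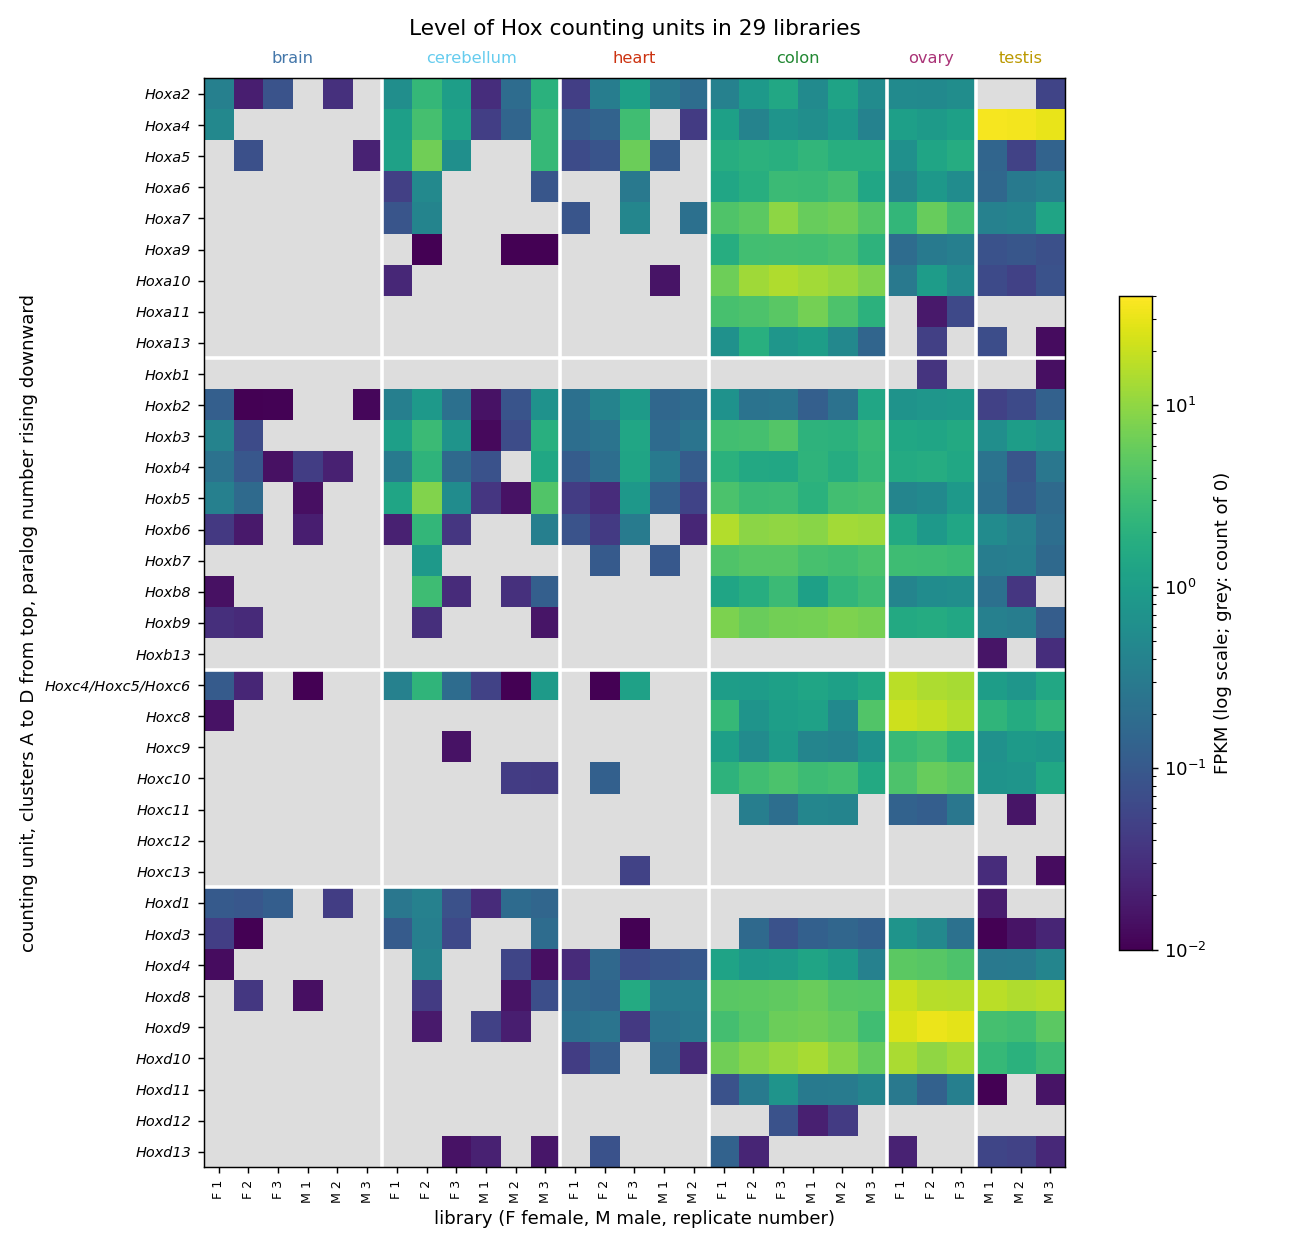
FPKM of the Hox units reported by name (vertical axis, clusters A to D, paralog number rising downward) in the 29 libraries (horizontal axis, grouped by tissue), log color scale, grey for a count of 0. Colon, ovary and testis libraries are filled in the central and posterior genes, and testis has a single bright HoxA gene, Hoxa4.

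The adult colon is a tube of epithelium, smooth muscle, nerve and connective tissue that arises from hindgut and posterior midgut. It was set against the mean of brain and cerebellum, the 2 head tissues. In colon the posterior gene Hoxb9, a thoracic and lumbar patterning gene, had 7.68, 6.07 and 6.78 FPKM in females and 7.01, 8.04 and 7.28 FPKM in males. Hoxd9 ran from 3.19 to 6.72 FPKM and Hoxd8 averaged 5.02 ± 0.533 FPKM. Across the 12 head libraries Hoxb9, Hoxd9 and Hoxd8 had a median of 0 FPKM each and highest values of 0.0303, 0.0491 and 0.0743 FPKM, so the groups do not overlap.

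Of the 30 units tested, 27 were called higher in colon (31.2% of the 29911 genes were) and 1 lower (39% of all genes). The 27 include units with 0 counts in the head, whose direction was fixed once they passed the expression filter. The median fitted log2 difference over the units was 6.95, and 6.01 with units at zero reference put at their bound, against -0.15 over all tested genes. For 16 units every colon library lay above every head library, as for 17.5% of all genes. The smallest adjusted p-values belonged to Hoxd8 (8.30 ± 0.40, 5.1e-16), Hoxb9 (9.72 ± 0.36, means 9.69, 6.8e-16), Hoxa9 (1595-fold, 546 to 7736, 3.7e-15) and Hoxd9 (9.63 ± 0.42, means 9.41, 4.1e-15). Without the libraries that stand apart, 29 of 29 tested units were called higher (31.1% of all genes) with a median of 8.03 and 6.25 with bounds; Hoxd8 was at 9.32 ± 0.26 (means 9.31), and Hoxb9, with 2 counts left in the head, 2097-fold higher (580.5 to 17320).

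Hoxb6 had the highest mean of any Hox gene in colon, with 9.22, 11.0 and 15.5 FPKM as lowest, median and highest library. Hoxa10 followed at 6.36, 11.7 and 14.9 FPKM, and Hoxd10 at 5.56, 8.99 and 13.7 FPKM. The head libraries had 0 counts of Hoxd10, and its rise in colon was at least 139-fold (adjusted p 1.1e-13). Hoxa10, a gene of lumbar and uterine patterning, exceeded its head counts 5144-fold (1424 to 42470). Hoxb6 rose by 7.34 ± 0.64, and by 10.08 ± 0.37 (means 10) without the libraries that stand apart, 1 of which, female cerebellum replicate 2, held 2.46 FPKM.

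Among the most posterior genes, Hoxa11 had 2.03, 3.96 and 7.13 FPKM as lowest, median and highest colon library against 0 counts in the head, at least 82.1-fold (8.3e-10). Hoxa13, which patterns hindgut, limb tip and genitals, had 0.152, 0.712 and 1.87 FPKM, at least 17.3-fold above the head (2.8e-07), and did not reach 1 FPKM on average. Hoxb13 and Hoxd13, also hindgut genes, were among those not tested. Hoxc10 had 1.53, 3.03 and 3.81 FPKM as lowest, median and highest colon library, and Hoxc8 ran from 0.520 to 4.19 FPKM.

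Hoxa4 was not called in colon (1.79 ± 0.92, means -0.12, adjusted p 0.0872). Without the libraries that stand apart it was, at 4.02 ± 0.41 (means 1.17, 3.9e-08), with 0 counts in brain. Hoxd1, an anterior gene, was the single unit called lower: colon had 0 counts and the head 69, at least 1.14-fold lower (0.00113). That call was lost without male brain replicate 2, and Hoxd1 was not tested once the libraries that stand apart were left out. The 4 smooth muscle markers summed to 3653, 4636 and 6271 FPKM in female colon and 10700, 6924 and 4533 FPKM in male colon, led by Acta2 or Actg2. The 4 enteric neuron markers, led by Vip, summed to 10.8 to 11.8 FPKM, and none of either list lacked a count in a colon library. Whether Hox levels in colon follow the share of muscle was not tested.

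The heart forms from lateral mesoderm whose posterior part passes through an anterior Hox domain, and in the adult it is mostly cardiomyocytes. Its Hox level is low outside the library that stands apart. Hoxd8 had 0.165, 0.145 and 1.58 FPKM in females and 0.316 and 0.318 FPKM in males, above the head maximum of 0.0743 FPKM in every library. Hoxd9 had 0.212, 0.243 and 0.0390 FPKM in females and 0.239 and 0.272 FPKM in males, against a highest head library of 0.0491 FPKM, so that female replicate 3, high in most Hox genes, was the heart with the least Hoxd9. Hoxa5 had 0.0657, 0.0850 and 6.15 FPKM in females and 0.109 and 0 FPKM in males.

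Of 30 units, 6 were called higher in heart than in the head (24.9% of all genes) and 1 lower (35.2% of all genes). Their median log2 difference was 1.18 over the 21 units with a fold and 1.00 with bounds, against -0.28 over all tested genes. The 6 of 30 units called higher lie near the share of all genes. Without the libraries that stand apart the units lie above that share, so nothing is read from this count. Called were Hoxa7, Hoxb2, Hoxd4 (3.20 ± 0.88, means 1.12, 0.00293), Hoxd8 (5.26 ± 0.53, 2.0e-09), Hoxd9 (5.66 ± 0.64, means 4.85, 8.2e-08) and Hoxd10 (at least 1.15-fold, 8.4e-05). Hoxd1 was lower, at least 1.65-fold (0.00307), a call lost without male brain replicate 2. Without the libraries that stand apart 10 units were called higher and 0 lower (24.2 and 34.8% of all genes), the median was 2.21 over 18 units and 1.78 with bounds, and Hoxa2, Hoxb3, Hoxb4 and Hoxb7 joined. Hoxd8 was then at 5.54 ± 0.42 (means 4.90), and Hoxd9, with 3 counts left in the head, 28.05-fold higher (9.597 to 136). Hoxa2 and Hoxb3, called higher on the log scale, had lower mean FPKM in those hearts than in the head (0.216 against 0.251 and 0.217 against 0.246 FPKM).

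By cluster, 4 of 7 tested units of HoxD were higher in heart, 1 of 10 of HoxA, 1 of 8 of HoxB and 0 of 5 of HoxC; without the libraries that stand apart HoxD had 4 of 6, HoxB 4 of 8, HoxA 2 of 10 and HoxC 0 of 5. With female replicate 3 left out, the highest heart means were Hoxd9 at 0.242 FPKM, Hoxb2 at 0.241 FPKM and Hoxd8 at 0.236 FPKM. In that replicate the highest were Hoxa5, Hoxa4 at 3.13 FPKM, Hoxd8, Hoxb3 at 1.34 FPKM, Hoxb4 at 1.27 FPKM and Hoxc4/Hoxc5/Hoxc6 at 1.16 FPKM; the other 4 hearts had 0.109, 0.141, 0 and 0.0429 FPKM of Hoxa4.

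The ovary develops from intermediate mesoderm and coelomic epithelium at trunk level and in the adult holds stroma, follicles and corpora lutea. Hoxd9 had 25, 31.8 and 28.4 FPKM in the 3 libraries, the highest mean of the Hox genes there. Hoxc8 had 21.1, 18.6 and 15.6 FPKM, Hoxd8 had 20.8, 16.2 and 15.7 FPKM, and the joined Hoxc4/Hoxc5/Hoxc6 locus had 16.8, 14.3 and 13.7 FPKM. The highest head library had 0.0743 FPKM of Hoxd8 and 0.0491 FPKM of Hoxd9, so every ovary lay above every head library for both.

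Against the head, 24 of 30 units were called higher in ovary (27% of all genes) and 1 lower (30.9% of all genes). The median log2 difference was 5.68 over units with a fold and 4.0 with bounds, against -0.02 over all tested genes, and for 15 units every ovary lay above every head library (25.1% of all genes). Hoxd8 (9.80 ± 0.41, 1.6e-16), Hoxd9 (11.86 ± 0.42, means 11.93, 4.6e-16), Hoxd10 (at least 187-fold, 5.3e-13) and Hoxb9 (7.22 ± 0.42, means 7.48, 3.4e-12) had the smallest adjusted p-values. Hoxa2, Hoxa4, Hoxa13 and Hoxb5 were among those not called, and Hoxd1 was at least 1.71-fold lower (0.00356), a call lost without male brain replicate 2. Leaving out the libraries that stand apart gave 27 higher and 0 lower (27.2 and 30.7% of all genes) and a median of 6.90 and 6.09 with bounds, with Hoxd8 at 10.83 ± 0.27 (means 11.12) and Hoxd9 3301-fold higher (1129 to 16000).

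The ovary code stops sooner in HoxA than the colon code does. Hoxa10 averaged 0.602 FPKM in ovary and 10.9 FPKM in colon, while Hoxc10 had 3.98, 5.77 and 4.94 FPKM in the ovaries and Hoxd10 had 14.1, 10.1 and 12.7 FPKM. Hoxa11, a uterine gene, had 5 counts over the 3 ovaries. The 4 oviduct and uterus markers summed to 3.12, 5.13 and 5.06 FPKM in ovary, led by Ovgp1 or Pgr, with 0 of them without a count.

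The testis mixes germ cells, which make up most of its RNA, with somatic cells of trunk mesoderm. Hoxa4, whose transcripts are a known feature of male germ cells, had 35.4, 34.5 and 30.4 FPKM, the highest mean of any Hox gene in any of the 6 tissues. Hoxd8 followed at 16.9, 15.1 and 16.4 FPKM, and Hoxd9 at 3.42, 3.12 and 5.02 FPKM. Hoxd10, the most posterior unit detected in testis, had 2.56, 2.02 and 2.93 FPKM. The head libraries had 0, 0.0981 and 3.52 FPKM of Hoxa4 as lowest, median and highest, so no testis value is matched there.

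Against the head, 19 of 30 units were called higher in testis (41.4% of all genes) and 2 lower (31.5% of all genes). The median log2 difference was 4.12, and 4.12 with bounds, against 0.20 over all tested genes; for 10 units every testis lay above every head library (32.7% of all genes, near the share of the units). Hoxd8 (10.33 ± 0.41, 1.0e-17), Hoxd9 (9.61 ± 0.45, means 9.05, 1.6e-14), Hoxd10 (at least 38.2-fold, 7.0e-12) and Hoxc9 (628-fold, 113 to 24810, 3.1e-11) led. Hoxa4 rose by 7.72 ± 0.69 (means 5.47, 4.2e-10), and by 9.95 ± 0.30 (means 6.76) without the libraries that stand apart. In that alternative 24 units were higher and 0 lower (42.0 and 31.5% of all genes) and the median was 5.69, and 5.22 with bounds; Hoxa5, Hoxb2 and Hoxb5, among the 24, had lower mean FPKM in testis than in the head.

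The 2 units called lower in testis were Hoxd1, with 1 count in testis and 69 in the head (19.2-fold, 3.44 to 758, adjusted p 0.018), and Hoxa2, with 3 counts and 310 (31.3-fold, 10.7 to 152, 0.0421). The Hoxd1 call was lost without male brain replicate 2, testis replicate 2 or testis replicate 3. The Hoxa2 call was lost without any 1 of female brain replicate 1, male brain replicate 2, female cerebellum replicate 2, male cerebellum replicate 3, testis replicate 1 or testis replicate 2, and without the libraries that stand apart (adjusted p 0.105). With brain alone as the head neither was called (adjusted p 0.109 for Hoxd1 and 0.609 for Hoxa2). Among those not called were Hoxa5, Hoxa11, Hoxb2, Hoxb4, Hoxb5, Hoxb8, Hoxc11 and Hoxd3. Crisp1 made up the 37.8 FPKM of the 6 epididymis markers in testis replicate 1, where the other 5 had no count; the sums were 2.25 and 0.440 FPKM in the other testes.

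Colon and heart lie at different levels of the trunk, and both hold much muscle and connective tissue. The 4 comparisons above share the brain and cerebellum libraries; this one does not. Hoxb9 and Hoxa9 had 0 counts in the 5 hearts and averaged 7.14 and 2.91 FPKM in colon. Hoxd10, at 5.56 to 13.7 FPKM in colon, had 0.0458, 0.111 and 0 FPKM in female and 0.171 and 0.0270 FPKM in male hearts.

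Higher in colon were 24 of 30 units (28.9% of all genes), and 0 were lower (25% of all genes). The median log2 difference was 6.02 and 3.97 with bounds, against 0.09 over all tested genes, and in 21 units every colon library lay above every heart library (20.4% of all genes). Hoxb9 (at least 135-fold, 6.1e-12), Hoxa9 (at least 119-fold, 1.9e-11), Hoxa10 (2785-fold, 500 to 110000, 1.5e-10) and Hoxd10 (6.37 ± 0.48, 2.4e-09) led. The units not called, Hoxa2, Hoxa4, Hoxa5, Hoxb2 and Hoxd1 among them, have paralog numbers of 5 or less. Without female heart replicate 3 and the other libraries that stand apart, 26 units were called (30.8% of all genes) with a median of 6.30 and 3.91 with bounds, and with Hoxa4 at 2.90 ± 0.48 (3.7e-05).

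Ovary and testis start from the same embryonic gonad, and they differ in germ cells and in somatic cell types. Sex and tissue cannot be separated here. Hoxd9 had 25 to 31.8 FPKM in ovary and 3.12 to 5.02 FPKM in testis, and Hoxc8 had 15.6 to 21.1 FPKM in ovary and 1.64 to 2.30 FPKM in testis. Hoxa4 went the other way, with 1.08, 0.924 and 1.10 FPKM in ovary. For 24 units every testis lay below every ovary (41.4% of all genes), and for 1, Hoxa4, above (33.0% of all genes).

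Of 30 units, 1 was called higher in testis (37.8% of all genes) and 18 lower (26.5% of all genes). As a median the log2 difference was -2.06 and -1.85 with bounds, against 0.15 over all tested genes. Hoxa4 was higher by 5.64 ± 0.99 (2.9e-05). Lower were Hoxd9 (-2.25 ± 0.40, 4.5e-05), Hoxa10 (-2.60 ± 0.56, 6.0e-04), Hoxb9 (-1.85 ± 0.42, 6.5e-04) and Hoxc8 (-2.50 ± 0.56, 9.4e-04), among others. Hoxd8 did not differ by test (0.52 ± 0.41, 0.27) although Hoxd9 and Hoxd10, its neighbors, did. Without testis replicate 1 the 19 calls came to 12, and blocking by library code to 9 (1 higher, 8 lower). The shares of all genes in these 2 fits are not given here, so the fall is not read as a trait of the Hox units.

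Within HoxA, 1 unit was higher and 4 lower in testis; 4 of 8 tested units of HoxB, 5 of 5 of HoxC and 5 of 7 of HoxD were lower. Leaving the 4 libraries of other tissues out gave 2 higher and 21 lower (38.7 and 27.6% of all genes) and a median of -2.06, and -1.86 with bounds, with Hoxd8 joining Hoxa4 on the higher side (0.52 ± 0.21, 0.0324). That direction depends on the scaling: on library totals the Hoxd8 means were 16.1 FPKM in testis and 17.6 FPKM in ovary, and the libraries overlap. Of the 4 smooth muscle markers 3 were called lower in testis (328 to 370 FPKM against 1037 to 2297 FPKM in ovary), as were 3 of 3 fibroblast, 3 of 3 endothelium and 3 of 4 leukocyte markers. Of all genes 26.5% were called lower in the fit on all libraries. Whether germ cells dilute the somatic Hox RNA of testis was not tested.

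Cerebellum arises from the first hindbrain segment, which lies in front of the Hox domains, and the brainstem behind it expresses paralogs 1 to 5. Hoxb5 had 1.29, 8.39 and 0.570 FPKM in female and 0.0376, 0.0152 and 4.23 FPKM in male cerebellum. Hoxa5 had 1.15, 6.52 and 0.629 FPKM in females and 0, 0 and 2.63 FPKM in males, and Hoxa2, a gene of the second branchial arch and hindbrain, had 0.607, 2.48 and 1.06 FPKM in females and 0.0295, 0.191 and 1.999 FPKM in males. Brain had at most 0.481 FPKM of any Hox gene, Hoxa4 in female replicate 1, and cerebellum overlaps that range through its male replicates 1 and 2. Hoxa4 had 1.06, 3.52 and 1.21 FPKM in female and 0.0464, 0.150 and 2.56 FPKM in male cerebellum. In the 5 pairs of a brain and a cerebellum library that share sex and the leading digit of their 2-digit code, whose meaning the labels do not state, the Hox sum was higher in the cerebellum library 5 times: 37.9 against 2.56, 6.91 against 0.275, 0.442 against 0.168, 0.968 against 0.122 and 17.7 against 0.0518 FPKM; 3 of the pairs hold none of the 4 libraries that stand apart. The highest brain mean was that of Hoxb5, with 0.377, 0.176 and 0 FPKM in females and 0.0140, 0 and 0 FPKM in males.

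Higher in cerebellum than in brain were 12 of 30 units (10.8% of all genes), and 0 were lower (15.3% of all genes). The median log2 difference was 4.29 over the 18 units with a fold, and 4.29 with bounds, against 0.00 over all tested genes, and in 0 units every cerebellum lay above every brain (9.33% of all genes). Hoxb3 (6.11 ± 1.13, means 3.83, with 0 counts in male brain, 2.0e-04), Hoxb5 (5.94 ± 1.16, 3.1e-04), Hoxb2 (4.44 ± 0.89, 4.0e-04) and Hoxa2 (4.23 ± 0.86, 5.0e-04) led. Without the libraries that stand apart 5 units remained (9.86% of all genes were higher) with a median of 2.62 over 11 units, Hoxa2 (3.28 ± 0.80, 0.0038), Hoxa4 (at least 6.48-fold, 1.3e-05), Hoxb2 (23.5-fold, 8.05 to 114, 0.00305), Hoxb3 (4.80 ± 0.75, means 4.85, 5.8e-05) and Hoxc4/Hoxc5/Hoxc6 (3.85 ± 0.74), and Hoxb5 lost its call (2.62 ± 0.97, 0.0519). Without male cerebellum replicate 3 alone the count was 5 too, and Hoxb5, at 3.07, was not called. The share of all genes in that fit is not given here, so nothing is read from its count.

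Which paralogs appear in cerebellum differs between libraries. Female replicate 2 had the highest values of any head library for the central genes Hoxb8 (3.09 FPKM), Hoxb6 (2.46 FPKM) and Hoxb7 (0.858 FPKM). Hoxd1 had 0.267, 0.377 and 0.0793 FPKM in female and 0.0282, 0.182 and 0.153 FPKM in male cerebellum, and 0.104, 0.0942 and 0.118 FPKM in female and 0, 0.0445 and 0 FPKM in male brain. It had 0 counts in heart, colon and ovary, which no other tested unit had.

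The tests between sexes within a tissue found 0 of 30 units in colon (0.324% of all genes were called), heart (0.0635%), brain (0.0368%) and cerebellum (0.0301%), and 0 with an interaction of sex and tissue (0.0167%). At unadjusted p under 0.05 the counts were 0, 4, 5, 4 and 0 (8.85, 9.65, 4.83, 3.06 and 6.77% of all genes), and DESeq2 called 0, 0, 1, 0 and 0. In heart they include Hoxa4, Hoxa5 and Hoxc4/Hoxc5/Hoxc6, each highest in female replicate 3. The 5 of brain were Hoxa2, Hoxb3, Hoxb5, Hoxb9 and Hoxd1, and the 4 of cerebellum Hoxa7, Hoxb6, Hoxb7 and Hoxb8. DESeq2 called Hoxb3 lower in male brain (at least 6.17-fold, 0.0333), which had 0 counts while female replicate 1 had 0.402 FPKM. The shares of all genes called by DESeq2 are not given here. The median log2 difference, male against female, was -0.14 in colon, -1.16 in heart, -3.25 in brain and -1.33 in cerebellum over the 29, 18, 11 and 18 units with a fold, -0.14, -0.76, -2.33 and -1.22 with bounds, and 0.00 over all genes. Leaving out the libraries that stand apart moved the medians to -0.14, -0.12, -2.12 and -3.39, and to -0.14, 0.01, -1.72 and -2.81 with bounds.

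Leaving out the libraries that stand apart made 5 units lower in male cerebellum, with 2 libraries a sex (0.0506% of all genes were lower): Hoxa4 (-3.39 ± 0.54, 0.0136), Hoxa5 (at least 11.7-fold, 0.018), Hoxb3 (-4.35 ± 0.63, 0.00437), Hoxb5 (35.3-fold, 12.1 to 171, 0.0365) and Hoxc4/Hoxc5/Hoxc6 (-3.40 ± 0.63, 0.0446). The male libraries left are those with the lowest brainstem sums. Libraries were left out by their summed Hox level, so these calls and p-values depend on a choice made from the Hox genes tested. With female brain replicate 2 left out as well, a setting added after these values were seen, the units called higher and lower were 29 and 1 in colon (33.1 and 32.3% of all genes), 13 and 1 in heart (25.1 and 29.2%), 27 and 1 in ovary (28.2 and 26.6%) and 25 and 0 in testis (43.1 and 27.2%) against the head, 6 and 0 in cerebellum against brain (7.67 and 10.6%), and 0 and 5 in male against female cerebellum (0.0158 and 0.0473%). Some units called higher had lower mean FPKM than the head. In heart these were Hoxa2, Hoxa5 (0.0649 against 0.224 FPKM), Hoxb3 and Hoxb5 (0.0634 against 0.241 FPKM). In testis they were Hoxa5, Hoxb2, Hoxb5 and Hoxd3.

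The clusters differ in their levels between tissues. In colon HoxA (30.7 ± 7.98 FPKM) and HoxB (33.1 ± 3.99 FPKM) were highest, HoxD had 20.6 ± 5.14 FPKM and HoxC 6.61 ± 0.867 FPKM. Ovary had most of its Hox RNA in HoxD and HoxC, with 8.40 ± 2.71, 10.6 ± 0.221, 41.0 ± 4.15 and 63.5 ± 2.33 FPKM for HoxA to HoxD. Testis had 34.7 ± 2.03 FPKM of HoxA, of which Hoxa4 made up 33.4 FPKM, 22.9 ± 2.17 FPKM of HoxD, 4.92 ± 0.943 FPKM of HoxC and 2.29 ± 0.368 FPKM of HoxB.

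Detected units by cluster, A to D, were 6 of 10, 7 of 10, 3 of 7 and 3 of 9 in colon, 3, 5, 4 and 4 in ovary, and 1, 0, 2 and 3 in testis. The highest detected paralog was 11 in HoxA, 9 in HoxB, 10 in HoxC and 10 in HoxD for colon, and 7, 9, 10 and 10 for ovary. In testis it was 4 in HoxA, 8 in HoxC and 10 in HoxD, with 0 units of HoxB detected. Group 10 was complete in colon (3 of 3), with 2 in ovary and 1 in testis, and group 11 was detected as Hoxa11 in colon alone. Cerebellum reached paralog 5 in HoxA and HoxB, and 0 units without the libraries that stand apart.

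**Figure D3:**
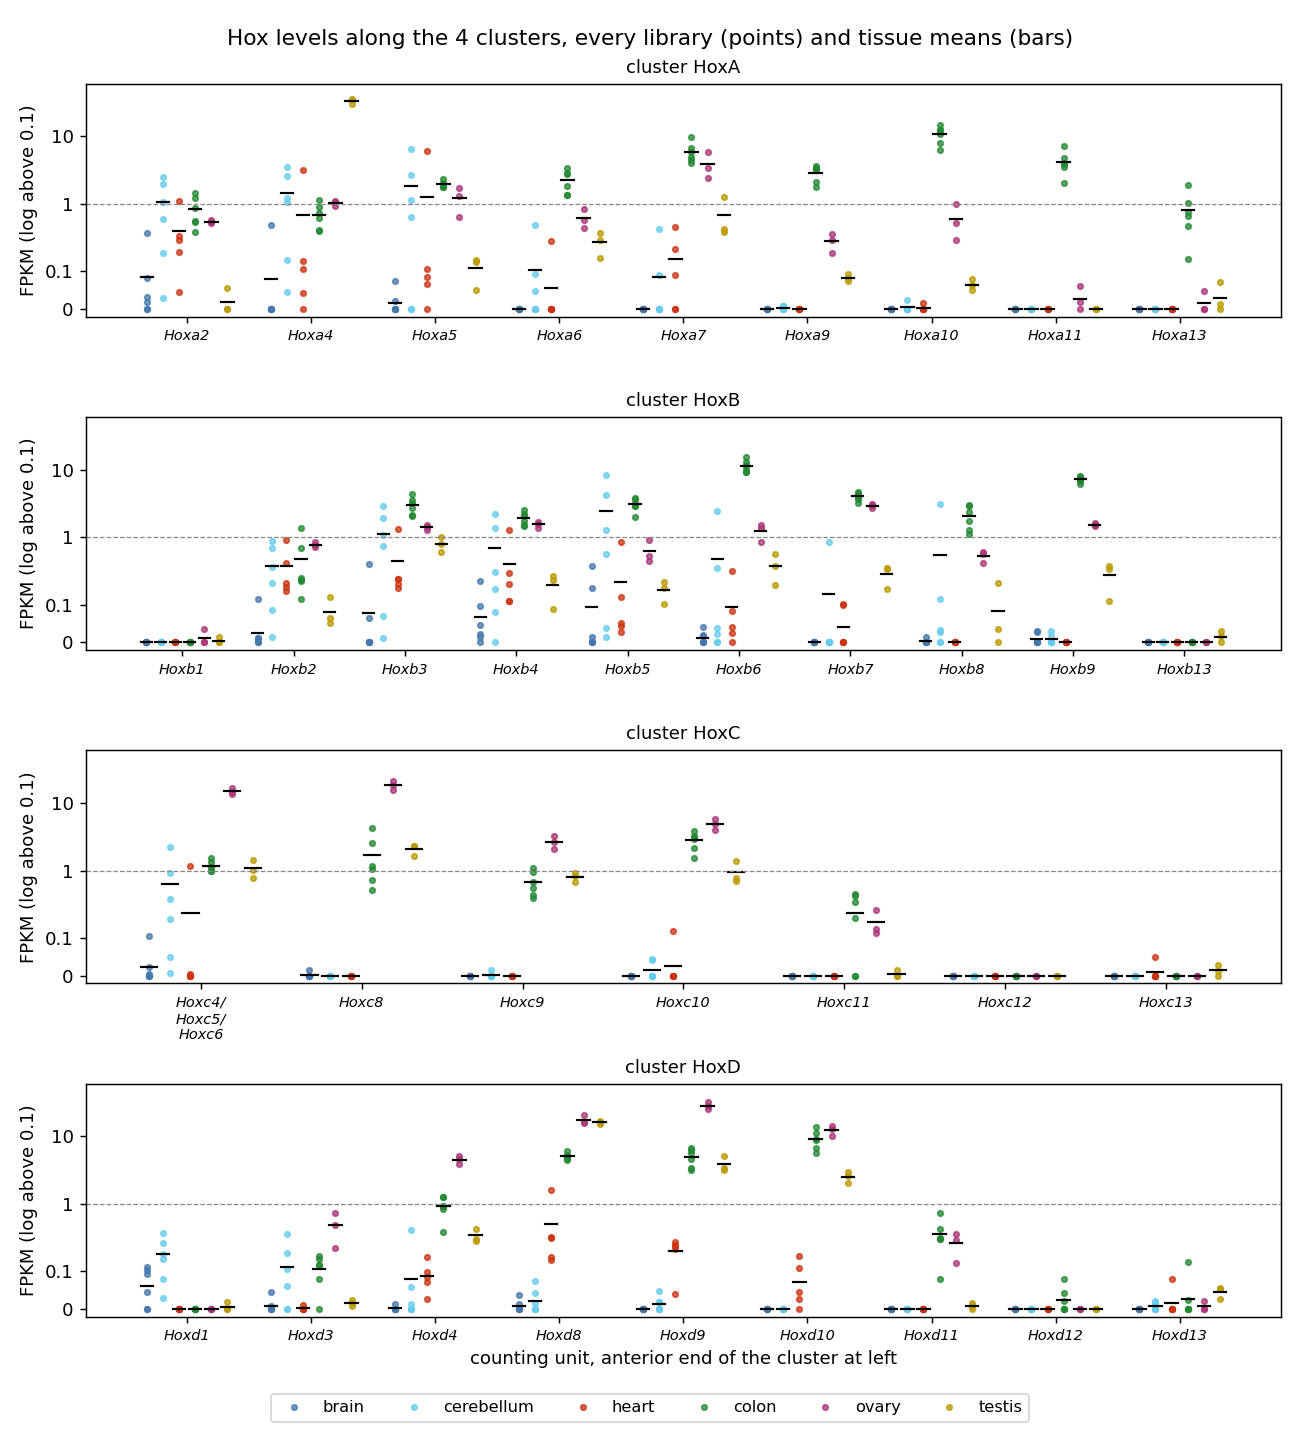
FPKM of the Hox units reported by name (horizontal axis, anterior end at left) in 4 panels, 1 per cluster, log scale above 0.1 FPKM, with libraries as points colored by tissue, means as bars and a dashed line at 1 FPKM. In HoxA colon continues to Hoxa11, ovary falls off after Hoxa7, and testis peaks at Hoxa4.

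Posterior units made up 39.2, 50.2 and 56.7% of the summed Hox FPKM in colon as lowest, median and highest library, 37.9, 42.8 and 43.7% in ovary and 11.8, 12.1 and 16.2% in testis. Anterior units made up 3.07 to 6.14% in colon, 2.65 to 2.86% in ovary and 1.06 to 1.88% in testis. In heart anterior units made up 22.1 to 46.8%, in cerebellum 19.0 to 64.1% and in brain 39.1 to 94.8%, the last from 3 to 177 Hox counts per library. Posterior shares in these 3 tissues were 0.456 to 20.2%, 0.147 to 15.9% and 0 to 3.65%. The paralog number weighted by FPKM averaged 2.84 ± 0.983 in brain, 4.0 ± 0.583 in cerebellum, 4.93 ± 0.388 in heart, 5.94 ± 0.190 in testis, 7.82 ± 0.0328 in ovary and 7.83 ± 0.305 in colon. Without the libraries that stand apart, anterior units made up 30.8 to 46.8% in heart, 35.1 to 64.1% in cerebellum and 39.1 to 94.8% in brain, posterior units 16.1 to 20.2%, 0.367 to 15.9% and 0 to 3.65%, and the weighted paralog number was 5.03 ± 0.365, 3.77 ± 0.531 and 2.72 ± 1.05. Shares of testis rest on Hoxa4, a central unit.

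**Figure D4:**
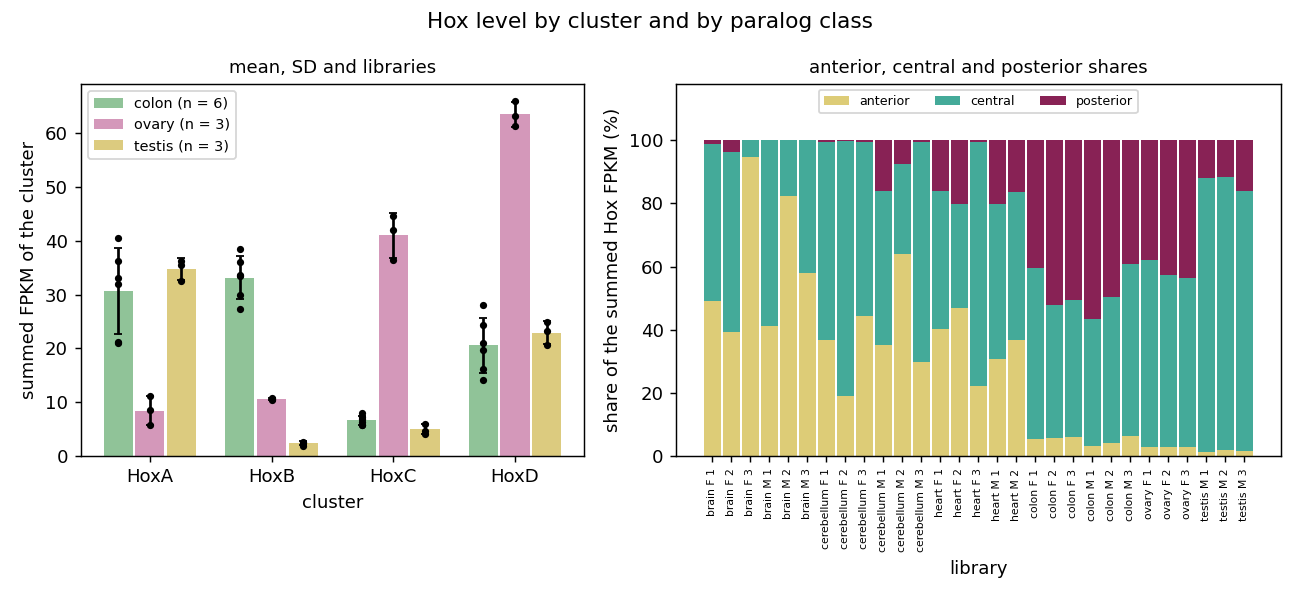
Left: summed FPKM of each cluster in colon (6 libraries), ovary (3) and testis (3), bars for mean and SD, points for libraries. Right: anterior, central and posterior shares (%) of the summed Hox FPKM in each library, with the posterior share largest in colon and ovary.

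Non-coding RNAs lie between the Hox genes, and many share their regulation. Of 45 other genes counted inside the clusters, 18 reached 1 FPKM in some tissue. The highest were Hoxd3os1 (chr2:74703248-74716130) at 21.6 ± 1.59 FPKM and Haglr (chr2:74748422-74762896) at 7.03 ± 0.217 FPKM, both in testis, and in colon Mir196a-1 (chr11:96265164-96265265) at 18.7 ± 6.96 FPKM, Gm53 (chr11:96251105-96264868) at 7.37 ± 1.86 FPKM and Hoxb5os (chr11:96291024-96306910) at 7.33 ± 1.41 FPKM. Gm29430 (chr6:52183110-52189925), which runs antisense to Hoxa4 and shares 21.2% of its exon bases, had 4.26 ± 0.407 FPKM in testis.

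Of all tested genes, 31.2 and 39% were called higher and lower in colon, 24.9 and 35.2% in heart, 27 and 30.9% in ovary and 41.4 and 31.5% in testis against the head, 28.9 and 25% for colon against heart, 37.8 and 26.5% for testis against ovary and 10.8 and 15.3% for cerebellum against brain; the counts of the 9 lists below stand beside these shares. Of 17 non-coding RNAs of the clusters chosen by name, 10 were tested. Higher against the head were 9 in colon, 3 in heart, 5 in ovary and 8 in testis, with 1 lower in heart; colon exceeded heart in 8, testis exceeded ovary in 4 and cerebellum exceeded brain in 5. The 3 of heart and the 4 of testis against ovary lie near the shares of all genes. Hoxa11os, antisense to Hoxa11, rose at least 30.3-fold in colon, and Mir196a-1 at least 16.2-fold. In testis Hoxd3os1 rose 6631-fold (2269 to 32150), Haglr by 6.61 ± 0.41 (1.3e-13) and Hotair at least 3.81-fold. Hoxb3os (5.36 ± 0.93) and Hoxb5os (5.32 ± 1.06) were higher in cerebellum than in brain; without the libraries that stand apart Hoxb3os stayed called (4.48 ± 0.62, 8.1e-06) and Hoxb5os was not (adjusted p 0.974).

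The microRNA genes of the clusters are shown because their hairpins lie among the Hox genes and miR-196 targets Hox transcripts. Counts here are reads on the hairpin gene, not the mature RNA. Mir196a-1, next to Hoxb9, had 29, 22, 13, 35, 51 and 30 counts in the colon libraries, 10, 7 and 10 in ovary, 5, 4 and 2 in testis and 0 elsewhere. Mir10a had 24 counts in colon, 7 in heart (6 of them in female replicate 3), 6 in ovary and 2 in cerebellum (both in female replicate 2), Mir10b had 4 in colon (all in male replicate 2), 5 in ovary and 1 in brain, Mir196a-2 had 6 in colon and Mir196b 0 in the series. Mir615, in HoxC, had 10 counts in ovary (8 of them in replicate 2) and 2 in testis, and its mature RNAs carry other seeds. The mature 5p sequences of miR-10 and miR-196 from RefSeq (GRCm38.p6) form 2 groups by seed, bases 2 to 8, in capitals:
mmu-miR-10a-5p: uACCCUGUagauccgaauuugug
mmu-miR-10b-5p: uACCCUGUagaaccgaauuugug
mmu-miR-196a-5p: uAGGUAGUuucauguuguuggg
mmu-miR-196b-5p: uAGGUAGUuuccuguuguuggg

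Hox proteins bind DNA with TALE homeodomain cofactors. Of 9 TALE cofactor genes, 1 was higher and 8 lower in colon than in the head, 1 and 7 in heart, 3 and 4 in ovary and 3 and 6 in testis. Colon against heart gave 2 higher and 1 lower, testis against ovary 3 and 6, and cerebellum against brain 2 and 6. Of all genes 39, 35.2, 30.9 and 31.5% were lower against the head in these 4 tissues. Meis1 was the one raised in colon (1.10 ± 0.10). Testis carried Pbx4 at 50.5 FPKM, 4.84 ± 0.18 above the head (2.1e-18) and 6.77 ± 0.34 above ovary (6.7e-15), while Meis2 was low, at 0.698 FPKM (-4.78 ± 0.44). Cerebellum had more Meis1 than brain, 5.62 against 1.12 FPKM (2.21 ± 0.12, 7.5e-13).

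The ParaHox genes are sisters of the Hox genes outside the clusters. Of 6, 5 were tested: 3 were higher and 1 lower in colon than in the head, 0 and 1 in heart, 1 and 1 in ovary, and 1 and 1 in testis. Colon exceeded heart in 3, testis against ovary gave 1 and 1, and cerebellum was lower than brain in 2; of all genes 31.2% were higher in colon and 28.9% for colon against heart. Cdx1 had 55.9 FPKM in colon (12.29 ± 0.33, 1.3e-17) and Cdx2, which activates Hox genes in the embryo, 70.1 FPKM, 24440-fold above the head (6765 to 201800, 1.6e-18). The Evx genes at the cluster ends, 2 in all, were called in testis against ovary (1 higher) and in cerebellum against brain (2 higher), Evx2 at 0.223 against 0.0409 FPKM (adjusted p 0.00175, and 0.00109 without the libraries that stand apart), with 0 counts in male brain.

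Homeobox genes of the head map the region in front of the Hox domains. Of 7, 7 were lower in colon (39% of all genes), 7 in heart (35.2%), 5 in ovary (30.9%; 1 higher) and 6 in testis (31.5%; 1 higher) than in brain and cerebellum; colon against heart gave 0 and testis against ovary 1 higher and 2 lower. Cerebellum against brain gave 3 higher and 4 lower, with Emx2 (-7.70 ± 0.38), Emx1 (-5.68 ± 0.41), En2 (4.84 ± 0.42) and Otx1 (-4.19) the largest. Emx2 was the gene raised in ovary, 19.2 against 4.48 FPKM.

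Genes flanking the clusters went both ways. Of 11, higher and lower were 4 and 6 in colon, 3 and 4 in heart, 1 and 4 in ovary and 5 and 4 in testis against the head, 3 and 5 for colon against heart, 4 and 3 for testis against ovary and 1 and 3 for cerebellum against brain. Several of these counts lie near the shares of all genes, among them 4 of 11 higher in colon (31.2%) and 4 of 11 lower in heart (35.2%), and nothing about the list is read from them. Tax1bp1, beside HoxA, rose by 1.78 ± 0.15 in colon, where Lnpk, beside HoxD, fell (-1.58), and Lnpk was higher in testis than in ovary (3.02 ± 0.29).

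Chromatin regulators hold Hox genes off or on. Of 17 Polycomb genes, higher and lower against the head were 3 and 9 in colon, 3 and 10 in heart, 3 and 5 in ovary and 6 and 9 in testis; colon against heart gave 5 and 8, testis against ovary 4 and 7, and cerebellum against brain 3 and 2. Of all genes 39% were lower in colon, 35.2% in heart, 30.9% in ovary and 31.5% in testis, so that the 5 of 17 lower in ovary lie near that share. Phc1 rose in testis by 2.62 ± 0.11 and Bmi1 by 2.18. Cbx2 rose in ovary by 2.40 ± 0.18. Cbx6 is counted in a long-read locus joined with Npcd and Nptxr, the highest unit of this list in brain (67.7 FPKM) and cerebellum (27.9 FPKM). Its level is not that of Cbx6 alone. Of 9 Trithorax genes the counts were 2 and 5, 3 and 4, 5 and 2 and 4 and 4 against the head in the same tissue order, then 1 and 3, 2 and 4 and 0 and 0, beside the same shares. Psip1 fell in colon (-1.91 ± 0.19) and Ash2l rose in testis (2.05 ± 0.10).

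Retinoic acid sets the anterior Hox borders in the embryo. Of 14 genes of its pathway 13 were tested, and higher and lower against the head were 6 and 5 in colon, 4 and 6 in heart, 7 and 4 in ovary and 8 and 4 in testis, with 4 and 6 for colon against heart, 3 and 7 for testis against ovary and 3 and 3 for cerebellum against brain. The 5 of 13 lower in colon lie near the 39% of all genes. Crabp2 fell in colon to 0.0613 FPKM from 17.2 FPKM (-8.48 ± 0.42). Aldh1a1, which makes retinoic acid, rose in ovary to 836 FPKM (2.89 ± 0.21), and Cyp26b1, which breaks it down, rose in testis to 40.6 FPKM (3.88 ± 0.30). Between sexes the called genes of these 9 lists came to 1, Kdm6a of the Trithorax list, lower in male colon (-0.97 ± 0.16, 0.00241); without the libraries that stand apart they came to 4, the others being 1 TALE gene and 2 non-coding RNAs lower in male cerebellum. For each of the 9 lists no test of the list as a whole was made.

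Promoters of the Hox genes were read from RefSeq (GRCm38.p6), as windows from 250 bases before to 50 bases after the start, for letters that Hox-Pbx pairs (TGATTNAT) and Cdx proteins (TTTATG) are known to bind, on both strands. Windows were at hand for 22 members, 24 in all, with a median GC content of 57.7% against 52.7% over all 32851 windows. TGATTNAT occurred in 2 of the 24 (8.33%; Hoxa2 and Hoxd11) and in 3.22% of all windows. TTTATG occurred in 5 of the 24 (20.8%; Hoxa7, Hoxb8, Hoxd11, Hoxd3 and Hoxd4) and in 11.9% of all windows. The 4 windows below are shown because Hoxa7, Hoxb8 and Hoxd4 hold 2 matches to TTTATG each, while Cdx1 and Cdx2 are high in colon, and Hoxa2 holds TGATTNAT; capitals mark the matches, and a match does not show that a factor binds. Coordinates are chr6:52218524-52218823 for Hoxa7 (minus strand), chr11:96281655-96281954 for Hoxb8 (plus), chr2:74721728-74722027 for Hoxd4 (plus) and chr6:52164782-52165081 for Hoxa2 (minus).
Hoxa7: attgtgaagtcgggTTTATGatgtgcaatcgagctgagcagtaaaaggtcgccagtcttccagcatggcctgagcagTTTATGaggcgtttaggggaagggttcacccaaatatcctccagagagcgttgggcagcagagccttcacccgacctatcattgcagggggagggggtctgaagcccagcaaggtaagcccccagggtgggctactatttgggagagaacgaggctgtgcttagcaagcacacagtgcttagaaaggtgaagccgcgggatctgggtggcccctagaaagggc
Hoxb8: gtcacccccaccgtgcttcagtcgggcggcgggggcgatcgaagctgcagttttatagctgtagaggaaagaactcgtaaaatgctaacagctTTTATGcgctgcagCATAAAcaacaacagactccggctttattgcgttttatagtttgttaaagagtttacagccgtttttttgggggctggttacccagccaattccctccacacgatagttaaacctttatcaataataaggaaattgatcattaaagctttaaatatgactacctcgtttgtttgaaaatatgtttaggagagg
Hoxd4: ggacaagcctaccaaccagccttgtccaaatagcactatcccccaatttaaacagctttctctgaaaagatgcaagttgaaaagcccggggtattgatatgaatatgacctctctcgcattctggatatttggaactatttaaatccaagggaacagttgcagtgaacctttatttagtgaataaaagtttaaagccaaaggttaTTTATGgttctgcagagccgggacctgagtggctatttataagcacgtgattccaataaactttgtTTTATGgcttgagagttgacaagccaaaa
Hoxa2: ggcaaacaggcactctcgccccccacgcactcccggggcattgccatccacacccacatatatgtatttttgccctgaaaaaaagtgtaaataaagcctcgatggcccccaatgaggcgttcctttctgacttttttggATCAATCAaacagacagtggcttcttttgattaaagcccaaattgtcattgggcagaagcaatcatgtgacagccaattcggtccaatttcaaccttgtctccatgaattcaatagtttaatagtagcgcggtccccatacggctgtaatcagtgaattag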

How the data were processed

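The authors deposited raw counts per gene for 29 libraries of ribosomal-RNA-depleted total RNA; per the submitters' processing notes, reads were checked with FastQC 0.11.8 and MultiQC 0.9, aligned to mm10 with HISAT2 2.0.5 and counted with featureCounts 1.6.3. The libraries are strand-specific per the labels; how featureCounts was set for strand is not stated. FPKM was computed here from these counts, library totals and exon unions. Libraries were grouped by tissue and sex in 1 edgeR 4.0.16 quasi-likelihood fit (TMM, filterByExpr, R 4.3.3). Up to 4 genes per direction and comparison are named with full statistics, by smallest adjusted p; of the other lists, up to 4 genes each, by largest log2 difference. The members and lists were chosen with earlier results of these data known. The code was tested on simulated data. Alternatives were DESeq2 1.42.0, RLE size factors, no filter, blocks by replicate number and library code, leaving out each library, other detection thresholds, lengths and library sizes, and, chosen after seeing the data, leaving out the libraries that stand apart, alone or with female brain replicate 2, and brain alone as the head tissue. Counts, medians and sums cover the units and lists as fixed; some of their genes are not reported here by name.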

Additional observations from a re-analysis of the deposited data

Results flagged for a closer look

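Of 29 groups of 5 or 6 libraries tested for a library far from the others, 3 were flagged; chance flags about 1 in 20 groups. The summed Hox level of brain was 2.56 FPKM in female replicate 1, far above the next brain library at 0.746 FPKM. The summed Hox level of heart was 19.7 FPKM in female replicate 3, far above the next heart library at 2.77 FPKM. Hoxa5 in the same heart library was 6.15 FPKM, far above the next at 0.109 FPKM; genes were tested where their mean reached 1 FPKM, which Hoxa5 did in heart through this library alone, and the sums of brain and heart are those by which these libraries were first set apart. The 5 cerebellum genes among the 29 groups reached the mean through such libraries too. The flags therefore restate libraries already set apart, and nothing is drawn from their number against chance.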

How the results depend on the processing

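Of 1233 values of single genes under the alternatives (the Hox genes given with full statistics, at most 4 a direction and comparison), 1210 kept their direction and their side of the threshold, 23 lost the threshold and 0 reversed; the 23 are Hoxd1 and Hoxa2 lower against the head, and Hoxb5 in cerebellum against brain. Of 436 counts of calls, 427 stayed within 1.5 times. Of 128 values of detection and highest paralog number, 100 stayed the same, which means within 1.5 times for detection and an equal number for the paralog. The count for testis against ovary (19) was 9 with the library code as a block and 12 to 20 with 1 library left out. The count for cerebellum against brain (12) was 5 without the libraries that stand apart, 6 without these and female brain replicate 2, and 5 to 14 with 1 library left out. Male against female brain (0) had 1 call by DESeq2, and male against female cerebellum (0) had 5 without the libraries that stand apart, with or without female brain replicate 2. Heart against the head (7) had 14 without all 5 of them. For the fits with a block, with 1 library left out or by DESeq2 the shares of all genes are not given here. Their counts are therefore not read as a trait of the Hox units. In each case the cause was not tested.

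Hox genes detected in cerebellum (5) were 8 at 0.5 FPKM, 1 at 2 FPKM, 2 without members that share exon bases with another gene, 0 when every library had to reach the threshold, 0 without the libraries that stand apart, and 2 to 5 with 1 library left out. In heart (1) they were 3 at 0.5 FPKM, 0 at 2 FPKM, 0 in every library, 0 without the libraries that stand apart, and 0 to 1 with 1 library left out. In ovary (16) they were 10 at 2 FPKM, and in testis (6) 10 at 0.5 FPKM. The highest paralog number of HoxA (0 for no unit detected) was 0 at 2 FPKM and 0 without the libraries that stand apart in cerebellum and in heart (5 each); at 0.5 FPKM it was 13 in colon (11), 10 in ovary (7) and 7 in testis (4). For HoxB it was 8 in cerebellum at 0.5 FPKM and 0 without the libraries that stand apart (5), 7 in ovary at 2 FPKM (9) and 3 in testis at 0.5 FPKM (0). For HoxC at 0.5 FPKM it was 6 in cerebellum (0), through the joined Hoxc4/Hoxc5/Hoxc6 locus alone, and 10 in testis (8). For HoxD in heart it was 8 at 0.5 FPKM (0). In each case the cause was not tested.

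The replicate numbers do not pair the libraries: residual correlations of the same number had a median of -0.00437 over 126 pairs, against -0.00201 over 252 pairs of other numbers, and 5 of 29 libraries correlate best with their own number. Replicate number as a block changed no count of calls. For libraries of 1 sex that share the leading digit of a 2-digit code (0 for codes under 10) the median was 0.0266 over 53 pairs, against -0.00874 over 115 other pairs of 1 sex, and 5 of 28 libraries correlate best with one that shares it. Mean library totals were lowest in colon; whether depth limits detection was not tested.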
